A study of Homo sapiens with 42 samples.

Results

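The genes described here encode the subunits of Mediator, 32 of the 26228 genes in the deposited table: MED1, MED4, MED6 to MED31, MED13L, the kinases CDK8 and CDK19, and cyclin C (CCNC). They were taken by symbol from a list of the core, tail and kinase module, without regard to their values. All 32 were found, and all 32 passed the filter of at least 1 FPKM (fragments per length of transcript and per mapped fragments of the library) in at least 3 libraries that left 12816 genes for testing. The lowest value of a member in any library was 2.4 FPKM.

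Mediator is the large coactivator that carries signals from transcription factors bound at enhancers to RNA polymerase II at promoters. Its head and middle contact the polymerase, its tail receives most activators, and MED14 is the backbone on which these parts are built. A separable module of MED12, MED13 or MED13L, cyclin C and the kinase CDK8 or CDK19 binds the core and blocks the polymerase from it. Mediator stimulates CDK7, the kinase of the general factor TFIIH, to phosphorylate the polymerase tail, a step at which the polymerase leaves Mediator.

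RNA selected for polyA was sequenced from HAP1, an adherent near-haploid human cell line derived from a chronic myelogenous leukemia, as wild-type cells (WT) and as cells whose CDK7 carries C312S, the exchange of the cysteine that covalent CDK7 inhibitors bind for a serine. Each line was treated for 24 h with DMSO, with YKL at 500 nM or 2 µM, with THZ531, with THZ1, or with a combination at 500 nM or 2 µM, which gave 14 groups of 3 libraries, 42 in all. YKL is known as a covalent inhibitor of CDK7, THZ531 of CDK12 and CDK13, and THZ1 of all 3 of these kinases. The combination labels give a dose and no compound. The names of the data columns tie them to THZ531 and YKL, and they are read here as THZ531 with YKL at the stated dose. The doses of THZ531 and THZ1, alone or combined, and whether the C312S line is a single clone are not given in the sources used here. No source says whether a group's 3 libraries are separate cultures. The p-values therefore measure only the spread between libraries within groups, estimated over all 14 groups together. This spread may be technical.

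The libraries differed in ways that the treatments do not name. The summed FPKM per library ran from 447938 to 913367. C312S DMSO (794400 ± 15170, SD, n = 3) and C312S THZ1 (852300 ± 52890) stood apart from the other 12 groups, whose means lay between 455900 and 628300, and results that rest on these 6 libraries are marked as such. The relative depth was read from the size of single-read steps. It ran from 0.574 times (WT THZ1 replicate 1) to 5.43 times (WT THZ531 replicate 2) that of WT DMSO replicate 1. The highest value rested on 153 of 1758 genes with low values, and WT THZ531 replicates 1 and 3 lay at 1.33 and 1.29. The number of reads is unknown. CDK7 itself lay between 29.1 and 51.2 FPKM in the WT groups and between 31.7 and 39.9 in the C312S groups other than DMSO (60.5 ± 1.75) and THZ1 (75.8 ± 0.741). A point mutation leaves these levels no check of the genotype. Of 14 blood cell markers none reached 1 FPKM in all libraries, 12 stayed under 1 in all, and HBG1 and CD3E were listed at 0 throughout, with a summed level of 1.23 to 3.09 FPKM. Of 10 markers of adherent cells, VIM, KRT18, CDH2 and FN1 were over 1 FPKM in all libraries, and 3 stayed under 1 in all. The 10 summed to 258.4 to 604.4 FPKM. In these bulk samples fewer cells of a type and less RNA per cell cannot be told apart.

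FPKM are relative to the other genes of the library. Spike-in scaling used those of the 92 spike-in RNAs that were over 1 FPKM in every library. It would move the median gene against DMSO by -0.58 log2 (YKL 500 nM), -0.10 (YKL 2 µM), 0.08 (THZ531), -1.99 (THZ1), -0.34 (combination 500 nM) and -0.93 (combination 2 µM) in WT. In C312S it would move it by 0.61 to 1.27, except with THZ1 (-0.14). Scaling to equal summed FPKM would move it by -0.15 to 0.25 in WT and by 0.30 to 0.36 in C312S, except with THZ1 (-0.06). Changes below are therefore changes relative to the median gene, and a member whose sign differs under another scaling is given with that value.

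In WT DMSO the members' levels, which are per length, ran from 4.06 FPKM for CDK19 to 48.8 for MED28, and their sum was 636 ± 10.9 FPKM, or 0.114% of the summed FPKM. The summed level of the members lay between 591 (YKL 2 µM) and 710 FPKM (combination at 2 µM) in WT, and between 645 and 689 in C312S apart from DMSO (814 ± 20.1) and THZ1 (846 ± 14.3). Single subunits moved in opposite directions within these sums. MED22 had the widest range over the 14 group means, 5.88-fold between WT DMSO and the WT combination at 2 µM, followed by MED11 (4.64-fold), MED18 (4.44-fold), MED7 (3.35-fold), MED31 (3.34-fold) and CCNC (3.06-fold). The highest means of these last 5 were those of C312S DMSO or C312S THZ1. Over the other 12 groups MED22 still had the widest range (5.88-fold), then MED11 (3.28-fold) and MED24 (2.40-fold), and MED18, MED7 and MED31 lay at 2.34, 2.33 and 2.22.

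**Figure D1:**
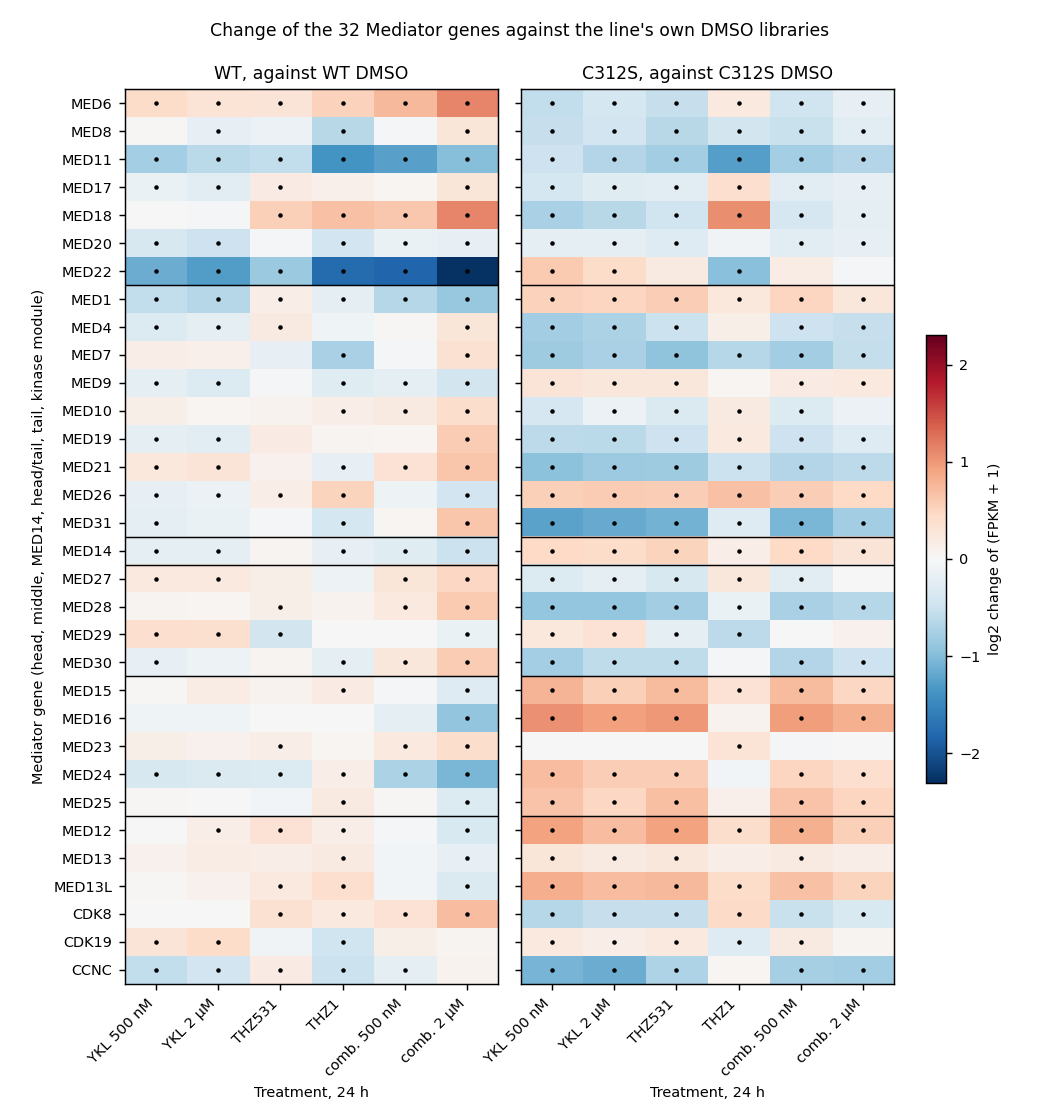
Log2 change of (FPKM + 1) of each of the 32 Mediator genes (rows, grouped by position in the complex) against the DMSO libraries of the same line, for 6 treatments in WT (left) and C312S (right), from 3 libraries a group; dots mark an adjusted p under 0.05 (limma). MED22 and MED11 are lower and MED6 higher in all 6 WT columns, while 5 of the 6 C312S columns, all set against the C312S DMSO libraries, share a pattern that the THZ1 column lacks.

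The WT treatments against DMSO ask what inhibition of CDK7, of CDK12 and CDK13, or of all 3 does to the cells, and all 6 share the same 3 DMSO libraries. Only 3 members were called in 1 direction in all 6: MED22 and MED11, both of the head, were lower, and MED6, a head subunit next to the middle, was higher. Of the other 29 members, 19 were called in both directions across the treatments, and none went without a call. Such patterns were not counted over all genes, of which 46.9% to 77.1% were called in each of the 6 comparisons. These counts therefore do not set Mediator apart from other genes.

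MED22 is a small head subunit that pairs with MED11 at the head's core. Its 3 DMSO libraries held 20.4, 23.0 and 20.8 FPKM. YKL at 500 nM gave 10.6, 8.73 and 8.06, and YKL at 2 µM gave 8.44, 8.6 and 7.42. THZ531 left 11.7, 11.9 and 10.5 FPKM. No treated WT library reached 12 FPKM, and the lowest levels came with THZ1 (5.825, 6.004 and 4.933) and with the combinations, 5.584, 4.998 and 5.398 at 500 nM and 4.39, 3.12 and 3.39 at 2 µM. The fall was by 1.15 log2 (SE 0.0918, adjusted p = 2.37e-12) with YKL 500 nM, by 1.29 with YKL 2 µM (adjusted p = 1.24e-13), by 0.86 with THZ531 (adjusted p = 7.23e-09) and by 1.77 with THZ1 (adjusted p = 5.23e-17). With the combinations it fell by 1.82 (adjusted p = 3.2e-17) and 2.28 log2 (adjusted p = 5.01e-20). All p-values here are limma's, adjusted by Benjamini and Hochberg over all 12816 genes.

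MED11, the partner of MED22, held 16.1, 14.7 and 15.6 FPKM under DMSO and at most 11.3 FPKM in any treated WT library. Its mean was 8.62 ± 1.08 FPKM with YKL 500 nM, 9.74 ± 0.774 at the higher dose, 10.2 ± 0.972 with THZ531, 5.44 ± 1.41 with THZ1, 5.90 ± 0.305 with the 500 nM combination and 7.38 ± 0.850 with the 2 µM combination. The largest fall was by 1.38 log2 with THZ1 (SE 0.128, adjusted p = 4.57e-11), and the smallest was by 0.56 with THZ531 (adjusted p = 0.000647). Thus the 2 partners fell in the same treatments, but MED22 was lowest with the 2 µM combination and MED11 with THZ1. In GENCODE 29 the exons of both genes overlap exons on the other strand (CXCL16 for MED11). The library kit keeps the strand, but whether the counting used it is not given.

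MED6 went the other way. It held 26.4, 24.8 and 21.4 FPKM under DMSO and 51.7, 57.1 and 52.3 with the combination at 2 µM, a rise of 1.12 log2 (SE 0.0657, adjusted p = 4.96e-16) that was lost under spike-in scaling (0.03, adjusted p = 0.794). The 500 nM combination gave 41.1 ± 2.72 FPKM (0.74) and THZ1 35.2 ± 2.47 (0.52, but -1.79 under spike-in scaling). YKL gave 32.7 ± 1.205 at 500 nM (0.42, but -0.21 under spike-in scaling) and 30.3 ± 2.60 at 2 µM (0.31, and 0.21 under spike-in scaling, adjusted p = 0.0803), and THZ531 30.0 ± 1.13 (0.30). The treated libraries all lay above the 3 DMSO libraries.

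**Figure D2:**
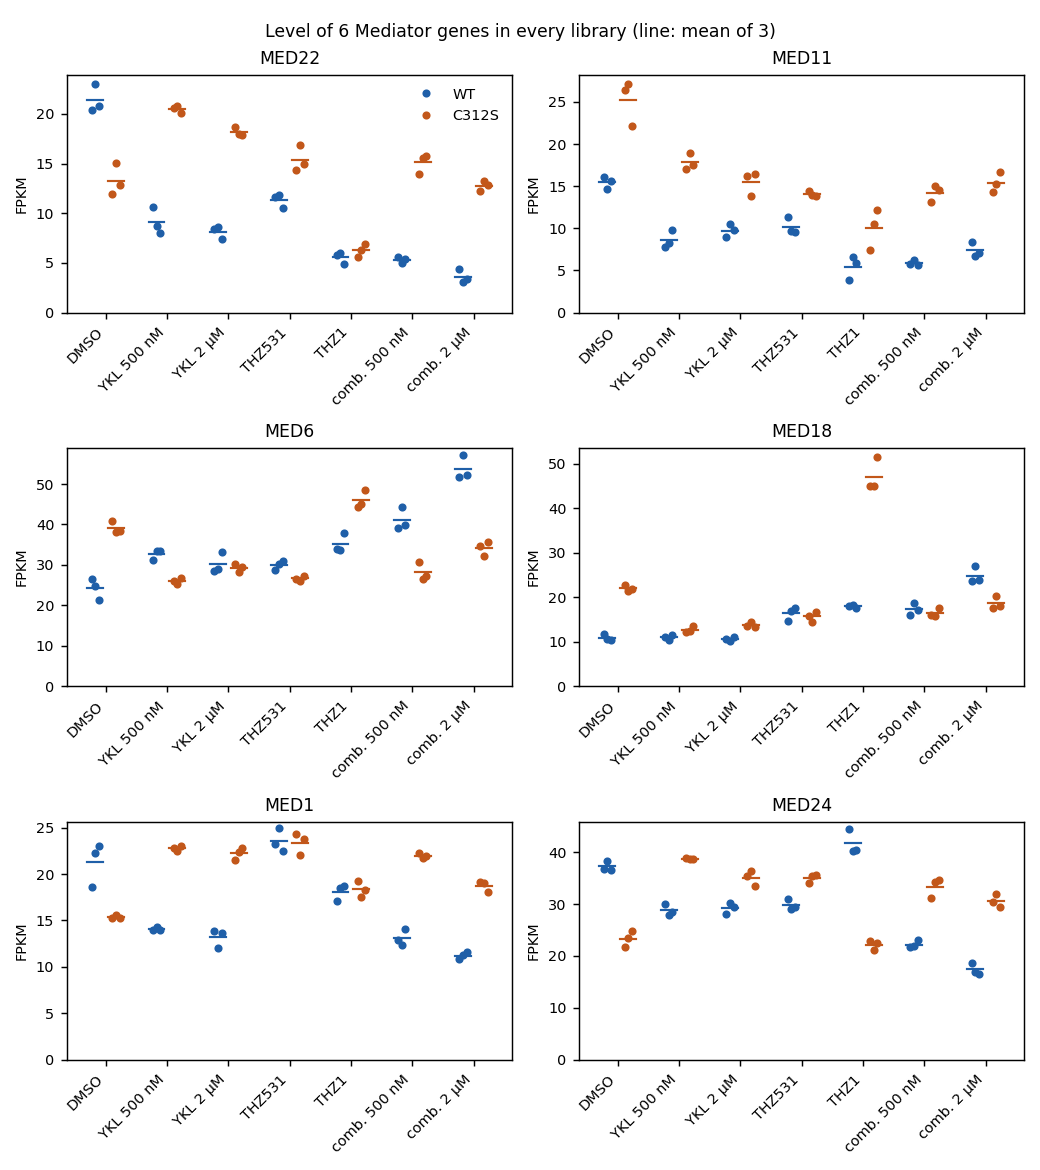
FPKM (linear axis from 0) of MED22, MED11, MED6, MED18, MED1 and MED24 in each of the 42 libraries by treatment, WT in blue and C312S in orange; dots are libraries and lines are means of 3. The WT libraries of MED22 fall from 20.4 to 23.0 FPKM under DMSO to 3.12 to 4.39 with the 2 µM combination, while those of C312S lie between 11.96 and 15.01 under DMSO and 12.25 and 13.23 with that combination.

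YKL alone called 19 of the 32 members at 500 nM, 5 higher and 14 lower, where 63% of all genes were called (31.3% higher and 31.7% lower). At 2 µM it again called 19, 6 higher and 13 lower, where 65.3% of genes were called (31.8% and 33.5%). The split at 500 nM was 17 higher and 5 lower under total-FPKM scaling and 0 and 30 under spike-in scaling. At 2 µM it was 16 and 4, and 1 and 13. The members' median change lay at 0.01 and -0.07 log2, beside 0.00 for all genes, and at -0.61 and -0.17 under spike-in scaling. Of the 9 middle genes 6 fell at 500 nM and 1 rose, and of the 7 head genes 4 fell and 1 rose.

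MED1 is the middle subunit that nuclear receptors bind. It held 18.6, 22.3 and 23.1 FPKM under DMSO, 13.99, 14.27 and 13.99 with YKL 500 nM and 13.86, 12.03 and 13.68 with 2 µM, with no overlap. It fell by 0.56 log2 (SE 0.0573, adjusted p = 6.31e-10) and 0.65 (adjusted p = 1.9e-11). The head subunit MED20 fell by 0.37 and 0.48 log2, from 20.4 ± 1.01 FPKM to 15.6 ± 1.06 and 14.3 ± 0.446. Among the members that rose were MED29 and MED27, which sit between head and tail. MED29 went from 15.8, 17.3 and 15.3 FPKM to 22.1, 20.8 and 21.0 at 500 nM (0.38 log2, adjusted p = 4.28e-06, but -0.24 under spike-in scaling) and to 21.0 ± 1.04 at 2 µM (0.36). MED27 rose by 0.22 and 0.23 and the middle subunit MED21 by 0.23 and 0.30, with -0.42 for MED27 and -0.39 for MED21 at 500 nM under spike-in scaling. At 2 µM that scaling ended the calls of MED27 (0.13, adjusted p = 0.34), MED21 (0.20, adjusted p = 0.16) and MED29 (0.26, adjusted p = 0.0619). MED14, the backbone, fell by 0.22 and 0.23 log2, from 33.1 ± 2.33 to 28.3 ± 0.704 and 28.1 ± 0.615 FPKM, but lay at 0.01 and 0.06 under total-FPKM scaling.

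Between the YKL doses 1 member differed in each line, where 6.18% of all genes were called in WT (2.14% higher and 4.04% lower) and 3.67% in C312S (2.02% and 1.65%). Under spike-in scaling all 32 were called higher at 2 µM in WT and 0 in C312S. MED8, a head subunit, was lower at 2 µM in WT, at 22.6, 24.7 and 24.5 FPKM against 28.01, 29.04 and 26.65 (-0.21 log2, adjusted p = 0.0435, but 0.31 under spike-in scaling). MED10, a middle subunit, was higher at 2 µM in C312S, at 54.3 ± 1.42 against 46.1 ± 1.42 FPKM (0.23, adjusted p = 0.0288). Neither call held up to leaving out libraries: MED8 was lost without WT YKL 2 µM replicate 1, 2 or 3 (-0.18, -0.24 and -0.23) or YKL 500 nM replicate 1 or 2 (-0.21 and -0.19). MED10 was lost without C312S YKL 2 µM replicate 1 (0.22) or YKL 500 nM replicate 1, 2 or 3 (0.25, 0.21 and 0.24), and also without YKL 2 µM replicate 2 (0.23), where another member was called instead.

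THZ531 in WT called 16 members, 12 higher and 4 lower, where 46.9% of all genes were called (24% higher and 22.9% lower). The split was 15 and 4 under total-FPKM scaling and 5 and 3 under spike-in scaling. Besides MED22 and MED11, the 2 that fell were the tail subunit MED24, from 37.3 ± 0.997 to 29.9 ± 1.03 FPKM (-0.31 log2, but -0.24, adjusted p = 0.115, under spike-in scaling), and MED29. MED29 held 11.9, 11.4 and 11.9 FPKM (-0.42 log2, SE 0.0635, adjusted p = 2.62e-06), below the DMSO libraries, where YKL had lain above them. MED18, a head subunit that caps the head's movable jaw, rose most. It held 14.7, 16.9 and 17.6 FPKM against 11.6, 10.6 and 10.5 under DMSO, a rise of 0.55 log2 (SE 0.0693, adjusted p = 1.67e-07). With YKL alone MED18 lay at 11.0 ± 0.666 and 10.6 ± 0.482 FPKM, within the range of the DMSO libraries or close to it, and was not called.

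THZ1 in WT called 24 members, 11 higher and 13 lower, where 68.8% of all genes were called (34% and 34.8%). The split was 4 and 16 under total-FPKM scaling and 0 and 32 under spike-in scaling. After MED22 and MED11 the largest falls were of MED7, a middle subunit that forms a hinge with MED21, and of MED8. MED7 held 5.91, 6.61 and 6.93 FPKM against 12.2, 11.2 and 11.3 (-0.75 log2, SE 0.0816, adjusted p = 1.35e-09). MED8 held 15.2, 17.6 and 19.0 against 29.03, 26.16 and 26.75 (-0.63, adjusted p = 3.45e-10). MED18 rose to 18.1, 18.2 and 17.7 FPKM (0.68, adjusted p = 3.96e-10, but -1.53 under spike-in scaling). MED26, the middle subunit that recruits elongation factors, rose to 8.94, 8.28 and 8.62 FPKM from 6.03, 5.85 and 5.44 (0.51, adjusted p = 4.16e-10, but -1.52 under spike-in scaling). Of the 5 tail genes 3 rose and none fell. The doses of THZ531 and THZ1 are not given, so these values stand beside those of YKL without a test between compounds.

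The combination at 500 nM called 17 members, 9 higher and 8 lower, where 68.2% of all genes were called (34% and 34.2%), and 16 and 4 under total-FPKM scaling, or 2 and 22 under spike-in scaling. The combination at 2 µM called 30, 15 in each direction, where 77.1% of all genes were called (38.9% and 38.1%), and 0 and 30 under spike-in scaling. After removal of GC and length trends 9 rose and 12 fell at 2 µM. MED18 rose to 16.1, 18.7 and 17.1 FPKM at 500 nM and to 23.6, 27.0 and 23.9 at 2 µM (1.12 log2, SE 0.0693, adjusted p = 1.91e-15, but 0.06, adjusted p = 0.585, under spike-in scaling). MED24 fell to 21.6, 21.9 and 23.0 FPKM and to 18.73, 17 and 16.48 (-1.06 at 2 µM, SE 0.0497, adjusted p = 2.18e-18). MED1 fell to 13.1 ± 0.866 and 11.2 ± 0.351 FPKM (-0.86 at 2 µM). MED16, a tail subunit that holds MED24 and MED23 to the rest, fell at 2 µM from 13.4, 13.7 and 13.9 to 8.33, 5.45 and 6.87 FPKM (-0.91, SE 0.0947, adjusted p = 3.15e-10).

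Among the middle genes MED31 went from 9.10, 9.14 and 9.12 to 12.7, 15.6 and 15.9 FPKM at 2 µM (0.63 log2, adjusted p = 1.32e-08, but -0.41 under spike-in scaling) and MED21 from 15.7 ± 0.662 to 25.0 ± 1.17 (0.65, but -0.42). After removal of GC and length trends neither passed (0.13, adjusted p = 0.0798, and 0.14, adjusted p = 0.0508). MED30, between head and tail, rose at 500 nM from 13.8 ± 0.818 to 16.6 ± 0.634 FPKM (0.25, but -0.11 under spike-in scaling, and 0.05, adjusted p = 0.596, after removal of GC and length trends). MED14 fell to 27.1 ± 2.27 and 23.2 ± 0.748 FPKM (-0.28 and -0.49), and at 500 nM lay at -0.12 under total-FPKM scaling (adjusted p = 0.129). At 2 µM members with a coding length under 1000 nt and longer members parted: 12 of the 18 short ones rose and 5 fell, while 3 of the 14 long ones rose and 10 fell. Over the 32 members Spearman's rho of the change was -0.43 with the length of the whole transcript and -0.50 with its GC content. Over 12143 genes it was -0.13 and -0.46, from the same libraries.

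The promoters of 4 members that moved differently are printed here, 250 bases before the start in RefSeq on GRCh38.p14, because MED11 fell in all 6 WT treatments and MED18 rose in 4 of them, while MED1 fell with YKL and CDK8 rose with the combinations. MED11 lies at chr17:4731178-4731427 (plus strand), MED18 at chr1:28328790-28329039 (plus), MED1 at chr17:39451264-39451513 (minus) and CDK8 at chr13:26253879-26254128 (plus). Capitals mark matches on either strand to 6 motifs, which were chosen after the promoters had been read. The ETS family motif was spelled CCGGAAG. The cyclic AMP response element (CRE) was spelled TGACGTCA. For the factor NFY the letters searched were CCAAT. The E-box that basic helix-loop-helix factors bind was spelled CACGTG. The TATA box, where TBP binds, was spelled TATAAA, and the NRF1 motif is named only.
MED11: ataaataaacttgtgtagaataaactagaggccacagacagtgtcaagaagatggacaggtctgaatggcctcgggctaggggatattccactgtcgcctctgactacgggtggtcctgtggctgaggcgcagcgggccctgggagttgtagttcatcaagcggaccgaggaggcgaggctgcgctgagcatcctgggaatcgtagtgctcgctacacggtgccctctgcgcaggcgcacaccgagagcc
MED18: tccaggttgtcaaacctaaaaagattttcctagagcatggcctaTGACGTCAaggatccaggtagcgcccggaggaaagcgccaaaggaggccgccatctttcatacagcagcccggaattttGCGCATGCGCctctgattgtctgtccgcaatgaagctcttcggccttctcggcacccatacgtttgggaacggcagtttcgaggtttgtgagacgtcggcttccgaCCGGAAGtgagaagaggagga
MED1: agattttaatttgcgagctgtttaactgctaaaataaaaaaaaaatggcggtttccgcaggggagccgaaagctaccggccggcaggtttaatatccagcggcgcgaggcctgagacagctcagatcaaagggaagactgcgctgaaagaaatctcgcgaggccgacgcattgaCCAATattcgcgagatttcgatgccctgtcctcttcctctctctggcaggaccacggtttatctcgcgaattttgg
CDK8: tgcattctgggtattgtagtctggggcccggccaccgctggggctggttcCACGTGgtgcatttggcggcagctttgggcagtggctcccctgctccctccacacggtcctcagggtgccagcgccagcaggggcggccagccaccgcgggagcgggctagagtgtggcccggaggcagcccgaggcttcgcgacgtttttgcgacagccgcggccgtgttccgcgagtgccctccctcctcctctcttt
MED18 holds an NRF1, a CRE and an ETS match, MED1 an NFY match and CDK8 an E-box match, and MED11 holds none of these letters. Of all 35116 promoter entries 1.03% hold the NRF1 letters, 1.65% the CRE, 8.52% the ETS, 32% the NFY, 6.34% the E-box and 10.7% the TATA letters. Of the 29 entries of members, 6 hold the ETS, 10 the NFY, 2 the E-box, 2 the TATA, 1 the NRF1 and 1 the CRE letters. Counted by gene, of the 24 members with an entry, 5 hold the ETS letters (MED7, MED15, MED17, MED18 and MED31), 9 the NFY letters, 2 the E-box letters (CDK8 and MED13L), 2 the TATA letters (MED7 and MED16) and MED18 alone the NRF1 and CRE letters. Among the members with ETS letters, MED7 and MED31 fell with THZ1 in WT and MED18 rose. The mean of MED15 went from 17.8 to 20.5 FPKM there and that of MED17 from 22.6 to 24.5. Whether the letters go with a change was not tested. A match is a description of letters and not of binding.

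**Figure D3:**
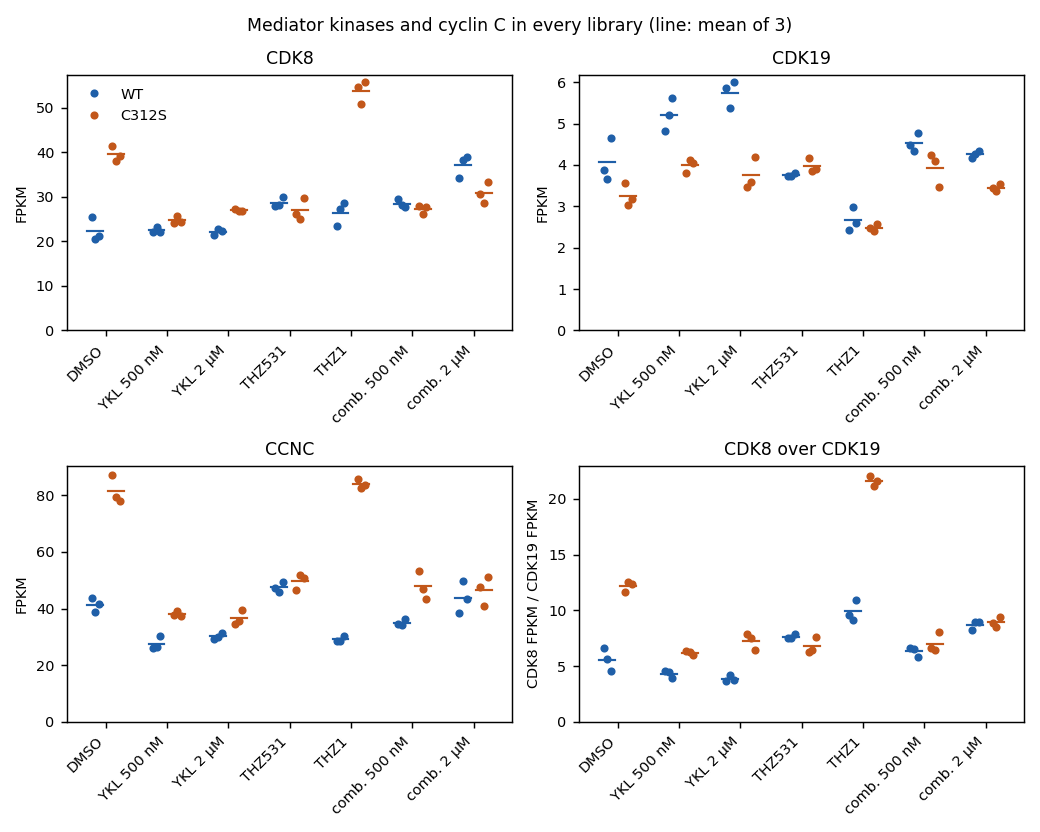
FPKM of CDK8, CDK19 and CCNC and the ratio of CDK8 to CDK19 (linear axes from 0) in each of the 42 libraries by treatment, WT in blue and C312S in orange; dots are libraries and lines are means of 3. In WT the ratio lies lowest with YKL 2 µM (3.87) and highest with THZ1 (9.90), and C312S DMSO (12.2) and C312S THZ1 (21.6) lie above all other groups.

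The kinase module moved apart within itself. CDK8 and CDK19 are alternative kinases of the module, and CDK8 was the more abundant in each group. CDK19 held 3.87, 3.65 and 4.66 FPKM in WT DMSO and rose with YKL to 4.82, 5.20 and 5.62 at 500 nM (0.30 log2, adjusted p = 0.000328, but -0.25 under spike-in scaling) and to 5.86, 5.38 and 6.01 at 2 µM (0.42, adjusted p = 2.93e-06). With THZ1 it fell to 2.43, 2.99 and 2.61 FPKM (-0.46, adjusted p = 5.46e-07). CDK8 held 25.5, 20.5 and 21.2 FPKM under DMSO, lay at 22.5 ± 0.579 and 22.2 ± 0.654 with YKL with no call, and rose with THZ531 to 27.9, 28.2 and 29.9 (0.35, adjusted p = 0.000117). With the combinations it rose to 28.5 ± 0.910 FPKM at 500 nM (0.34, but -0.03 under spike-in scaling) and 37.2 ± 2.54 at 2 µM (0.71, but -0.38). Its THZ1 value, 26.4 ± 2.69 FPKM (0.23, but -2.05 under spike-in scaling), was called, but the libraries overlapped with DMSO. The call was lost under total-FPKM scaling (0.07, adjusted p = 0.341) and with only the compared groups in the fit (adjusted p = 0.104).

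The ratio of CDK8 to CDK19 in single libraries was 6.58, 5.61 and 4.55 in WT DMSO, 3.66, 4.22 and 3.73 with YKL 2 µM and 9.62, 9.12 and 10.97 with THZ1, a ratio that no scaling of the library changes. CCNC, the cyclin of both kinases, held 43.7, 38.7 and 41.6 FPKM in WT DMSO. It fell to 25.9, 26.3 and 30.3 with YKL 500 nM (-0.57 log2, adjusted p = 1.55e-07), to 30.2 ± 1.03 with 2 µM (-0.44, and -0.16 under total-FPKM scaling, adjusted p = 0.0665) and to 29.1 ± 1.01 with THZ1 (-0.49). With THZ531 it held 47.2, 45.9 and 49.2, a rise of 0.20 (adjusted p = 0.0386) that was lost without THZ531 replicate 1 or 3 (0.20 and 0.17) or DMSO replicate 2 or 3 (0.15 and 0.20).

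MED12, which activates the kinase, rose with THZ531 from 8.36, 10.2 and 9.73 to 12.7, 12.4 and 11.1 FPKM (0.33, adjusted p = 0.000246) and fell with the 2 µM combination to 7.64, 6.69 and 7.29 (-0.34, but 0.05 after removal of GC and length trends). MED13L, which links the module to the core in place of MED13, rose with THZ1 to 11.4, 11.34 and 11.99 FPKM from 7.31, 9.17 and 9.45 (0.39, adjusted p = 7.12e-06, but -1.73 under spike-in scaling). With THZ531 it rose to 10.3 ± 0.627 FPKM (0.23), a call that was lost without DMSO replicate 1 (0.13, adjusted p = 0.105). The THZ1 call of MED12 (0.15) was lost without DMSO replicate 1 (0.08) or THZ1 replicate 1 or 3 (0.13 and 0.15), and that of MED13 (0.21) without DMSO replicate 1 (0.10) or THZ1 replicate 1 or 2 (0.20 and 0.20). Under spike-in scaling they lay at -1.95 and -1.90. Of the 6 module genes, 1 rose and 1 fell with the lower YKL dose, 2 and 1 with the higher dose, 4 and 0 with THZ531, 4 and 2 with THZ1, 1 and 1 with the 500 nM combination and 1 and 3 with the 2 µM combination, where 63%, 65.3%, 46.9%, 68.8%, 68.2% and 77.1% of all genes were called. One of the rises at the higher YKL dose was MED12 (0.15, adjusted p = 0.0498), whose libraries overlapped with DMSO, and this call was lost with only the compared groups in the fit (adjusted p = 0.128) or without DMSO replicate 1 (0.08).

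The C312S line was set against its own DMSO libraries in the same 6 treatments, and here every call rests on the C312S DMSO libraries that stand apart. YKL 500 nM called 31 members (14 higher and 17 lower, where 76.4% of all genes were called, 36.9% higher and 39.6% lower), and YKL 2 µM also called 31 (14 and 17, beside 75.8%, 36.6% and 39.2%). THZ531 called 30 (12 and 18, beside 74.1%, 34.6% and 39.5%), the 500 nM combination 29 (12 and 17, beside 73.4%, 35% and 38.4%), the 2 µM combination 25 (10 and 15, beside 68.7%, 32.8% and 35.9%) and THZ1 23 (14 and 9, beside 63.6%, 33.9% and 29.7%). Under total-FPKM scaling the splits were, in the same order, 18 and 9, 19 and 7, 18 and 7, 19 and 7, 22 and 4, and 10 and 11. Under spike-in scaling none fell in the first 5, where 27 to 32 rose, and with THZ1 2 rose and 10 fell.

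With YKL 500 nM in C312S most long members rose and most short ones fell. MED16 rose with YKL 500 nM from 5.54, 7.58 and 6.49 FPKM to 14.23, 15.01 and 14.26 (1.05 log2, adjusted p = 1.45e-11), and MED12 from 5.12, 4.57 and 4.96 to 10.6, 9.76 and 10.0 (0.92, adjusted p = 1.86e-13). MED31 fell from 23.6, 21.2 and 21.6 FPKM to 9.03, 7.85 and 9.71 (-1.23, adjusted p = 5.58e-15, but -0.15, adjusted p = 0.215, under spike-in scaling), and CCNC from 87.4, 79.3 and 77.9 to 37.8, 39.2 and 37.3 (-1.08, but 0.07 under spike-in scaling). The WT DMSO means of MED16, MED12, MED31 and CCNC were 13.7, 9.43, 9.12 and 41.3 FPKM, closer to the treated C312S libraries than to C312S DMSO. With YKL 500 nM 11 of the 14 members with a coding length of 1000 nt or more rose and 2 fell, and 15 of the 18 shorter ones fell and 3 rose. Spearman's rho of the change with the length of the whole transcript and with its GC content was 0.53 and 0.61 over the 32 members. Over 12143 genes it was 0.28 and 0.58, from the same libraries. After removal of GC and length trends the balance turned: 15 rose and 8 fell with YKL 500 nM, 14 and 9 with YKL 2 µM, 16 and 10 with THZ531, 15 and 9 with the 500 nM combination and 14 and 6 with the 2 µM combination.

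Set directly against WT DMSO, C312S DMSO differed in 31 of the 32 members (17 higher and 14 lower, with 79.2% of all genes called, 41.3% higher and 37.9% lower, and 9 and 17 under total-FPKM scaling, 0 and 31 under spike-in scaling). MED31 was higher by 1.19 log2 (adjusted p = 9.47e-15, but -0.16 under spike-in scaling), CCNC by 0.96 and MED18 by 0.95 (-0.46 and -0.41). MED16 (-0.97), MED15, a tail subunit bound by activators (-0.88), and MED12 (-0.82) were lower. Of the 18 short members 15 were higher and 3 lower, and of the 14 long ones 2 were higher and 11 lower. Across the 32 members Spearman's rho of the change was -0.54 with the length of the whole transcript (nt) and -0.60 with its GC content. Across 12143 genes it was -0.28 and -0.55, from the same libraries. After removal of GC and length trends 10 were higher and 15 lower.

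Under THZ531 the same lines differed in 8 members (3 higher and 5 lower in C312S, with 30.4% of all genes called, 17% higher and 13.5% lower, but 2 and 10 under total-FPKM scaling, 3 and 0 under spike-in scaling), and the count was 5 without C312S THZ531 replicate 2 or 3 or WT THZ531 replicate 2. MED22 was higher in C312S, at 14.3, 16.9 and 14.9 FPKM against 11.7, 11.9 and 10.5 (0.40 log2, adjusted p = 0.00102), as was MED11, at 14.1 ± 0.285 against 10.2 ± 0.972 (0.44, adjusted p = 0.00941). MED24 was higher by 0.22 (0.13 under total-FPKM scaling, adjusted p = 0.0866) and MED28, between head and tail, lower (-0.18, and -0.08 after removal of GC and length trends, adjusted p = 0.295). None of the 9 middle genes differed. Neither short nor long members stood together here (2 higher and 1 lower of 18, and 1 and 4 of 14). Whether the DMSO difference reflects the lines or those DMSO libraries was not tested.

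The combinations against THZ531 alone show what YKL added, in comparisons of group means that do not use the DMSO libraries. The DMSO libraries still enter the estimate of the spread, which all 14 groups share. The dose of THZ531 is not given and is taken to be the same alone and combined, and within a line both doses share the THZ531 libraries. In WT, adding YKL 500 nM called 19 members (6 higher and 13 lower, with 61.1% of all genes called, 31.5% higher and 29.7% lower, but 11 and 9 under total-FPKM scaling, 0 and 27 under spike-in scaling), and adding 2 µM called 28 (14 and 14, with 73.5% of all genes called, 38.3% and 35.3%, and 0 and 32 under spike-in scaling). In C312S, adding 500 nM called 0 (limma; 0.577% of all genes called, 0.39% and 0.187%), with 2 members at an unadjusted p under 0.05, 0 calls under total-FPKM scaling and 30 lower under spike-in scaling, which moves the median gene by -0.34 and the members' median by -0.36. Adding 2 µM in C312S called 19 (11 higher and 8 lower, with 34.8% of all genes called, 18.5% and 16.3%, but 8 and 10 under total-FPKM scaling, 0 and 32 under spike-in scaling).

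MED1 moved in WT and less in C312S. In WT it fell from 23.3, 24.9 and 22.5 FPKM with THZ531 to 12.9, 12.4 and 14.1 when YKL 500 nM was added (-0.80 log2, SE 0.0573, adjusted p = 2.31e-13) and to 10.9, 11.2 and 11.6 with 2 µM (-1.01, adjusted p = 3.35e-16). In C312S it held 24.3, 22.1 and 23.8 FPKM with THZ531, 22.3, 21.7 and 22.0 with 500 nM added (-0.08, 95% interval -0.20 to 0.03, adjusted p = 0.75) and 19.2, 19.0 and 18.0 with 2 µM added (-0.30, adjusted p = 0.000132). The test of the difference between the lines gave 0.72 log2 at 500 nM (SE 0.081, adjusted p = 1.86e-08) and 0.70 at 2 µM (adjusted p = 1.66e-08).

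MED22 fell in WT by a further 0.96 and 1.42 log2 on adding YKL 500 nM and 2 µM. In C312S it held 14.3, 16.9 and 14.9 FPKM with THZ531, 13.96, 15.56 and 15.8 with 500 nM added (-0.02, 95% interval -0.21 to 0.17) and 12.3, 13.2 and 12.8 with 2 µM added (-0.25, adjusted p = 0.036). The last call was lost without C312S combination 2 µM replicate 1 or 3 (-0.22 and -0.25) or THZ531 replicate 2 or 3 (-0.18 and -0.27), and after removal of GC and length trends (-0.19, adjusted p = 0.0529). The difference between lines was 0.94 log2 at 500 nM (adjusted p = 6.29e-07) and 1.18 at 2 µM (adjusted p = 7.06e-09).

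MED11 fell in WT by 0.69 log2 when 500 nM was added and lay in C312S at 0.01 (95% interval -0.25 to 0.27), a difference of 0.70 (adjusted p = 0.00215). MED16 fell in WT from 14.6, 12.5 and 13.6 to 8.33, 5.45 and 6.87 FPKM when 2 µM was added (-0.90), and in C312S it went from 14.04 ± 0.428 to 12.2 ± 0.706, a difference of 0.71 (adjusted p = 4.91e-05). MED14 fell in WT by 0.35 and 0.56 and CCNC by 0.43 at 500 nM.

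Some members rose in WT on adding YKL. MED6 rose by 0.44 and 0.82 (-0.01 and -0.35 under spike-in scaling), and the effect in C312S less that in WT was -0.36 log2 at 500 nM (adjusted p = 0.00207) and -0.47 at 2 µM (adjusted p = 8.92e-05). Neither passed under spike-in scaling (-0.29, adjusted p = 0.164, and -0.06, adjusted p = 0.743), and at 2 µM it lay at -0.05 (adjusted p = 0.603) after removal of GC and length trends. MED18 rose in WT by 0.57 at 2 µM and MED31 by 0.66 (-0.57 and -0.44 under spike-in scaling). MED29 rose in WT by 0.42 at 500 nM, but lay at -0.01 under spike-in scaling, and the difference between lines did not pass (-0.21, adjusted p = 0.0541). In C312S the members called higher at 2 µM were led by MED8 (0.37), MED7 (0.37) and MED27 (0.35), at -0.38, -0.36 and -0.41 under spike-in scaling, and MED12 fell there by 0.38. Over all members the difference between lines was called for 11 at 500 nM (8 higher and 3 lower in C312S, with 41.5% of all genes called, 20.5% and 21%, but 6 and 5 under total-FPKM scaling, 4 and 0 under spike-in scaling) and for 19 at 2 µM (11 and 8, with 53.1% of all genes called, 25.9% and 27.2%, but 17 and 0 under spike-in scaling).

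**Figure D4:**
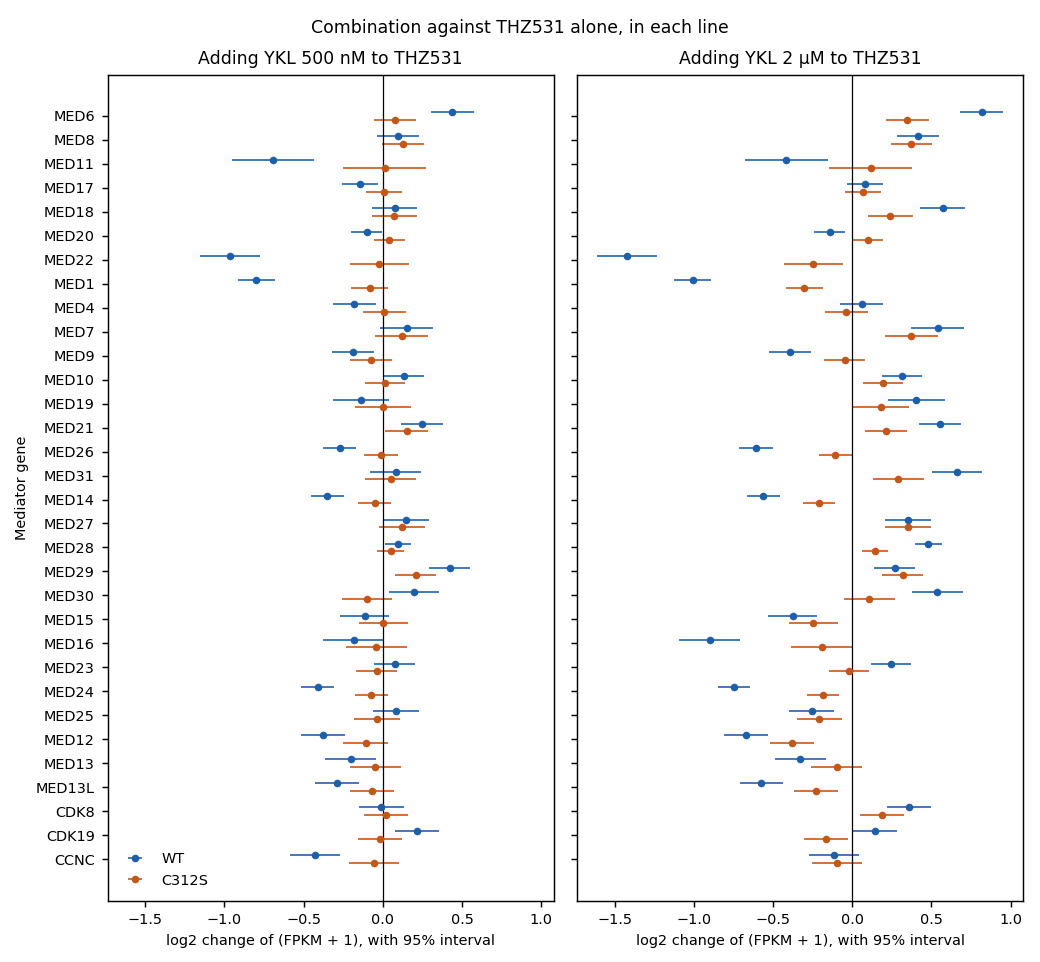
Log2 change of (FPKM + 1) between the combination and THZ531 alone, with 95% intervals, for the 32 Mediator genes (rows), WT in blue and C312S in orange, with YKL at 500 nM (left) and 2 µM (right), 3 libraries a group. At 500 nM MED22 lies at -0.96 and MED1 at -0.80 in WT, and at -0.02 and -0.08 in C312S.

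For THZ1 the comparison of lines rests on the C312S DMSO and C312S THZ1 libraries that stand apart. The THZ1 effect differed between the lines in 17 members (12 higher and 5 lower in C312S, with 42.2% of all genes called, 22.4% higher and 19.8% lower, but 14 and 3 under total-FPKM scaling, 32 and 0 under spike-in scaling, which moves the median gene by 1.85). MED22 fell in C312S from 11.96, 15.01 and 12.85 FPKM to 5.64, 6.34 and 6.90 (-0.97 log2), and in WT by 1.77, a difference of 0.80 (adjusted p = 9.55e-06). Its THZ1 levels were 6.29 ± 0.634 in C312S and 5.59 ± 0.573 in WT, close together, while the DMSO levels differed. MED11 fell in C312S from 26.4, 27.1 and 22.1 to 7.38, 10.6 and 12.2 FPKM (-1.27, adjusted p = 4.29e-10), and MED18 rose from 22.8, 21.4 and 21.7 to 44.9, 44.9 and 51.5 (1.06, adjusted p = 2.44e-14). CCNC held 84.1 ± 1.58 FPKM with THZ1 in C312S, where DMSO had 81.5 ± 5.10, and fell in WT, a difference of 0.54 (adjusted p = 0.000211).

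MED22, MED11, MED18 and MED26 moved in the same direction with THZ1 in both lines, each against its own DMSO libraries, but under spike-in scaling MED18 and MED26 turned in WT (-1.53 and -1.52) and not in C312S (0.82 and 0.42). MED26 rose in C312S from 3.91, 3.88 and 3.82 to 7.35, 6.27 and 6.63 FPKM (0.67) and in WT by 0.51.

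Beside Mediator, general transcription factors (TBP, its associated factors and TFIIA, TFIIB, TFIIE and TFIIF, 23 genes) were counted as a partner group that meets Mediator at promoters. In WT 11 rose and 6 fell with the lower YKL dose, 8 and 5 with the higher, 11 and 3 with THZ531, 14 and 5 with THZ1, 14 and 5 with the 500 nM combination and 13 and 7 with the 2 µM combination, with medians of 0.10 to 0.38 log2. Of 9 genes of cohesin and its loader, which binds Mediator at enhancers, none rose with YKL and 7 and 6 fell at 500 nM and 2 µM (medians -0.19 and -0.19), while THZ531 gave 5 higher and 1 lower, THZ1 2 and 3, and the combinations 1 and 3 and 2 and 6. Of all genes 63%, 65.3%, 46.9%, 68.8%, 68.2% and 77.1% were called in these 6 comparisons, with 24% to 38.9% higher and 22.9% to 38.1% lower. The splits and medians of these 2 groups were not computed under another scaling. Total-FPKM scaling moves the median gene by 0.20 and 0.25 with the 2 YKL doses. Spike-in scaling moves it by -0.58 with YKL 500 nM and by -1.99 with THZ1. The signs of these medians may therefore not hold. Adding YKL 500 nM to THZ531 in C312S called none of either group. The members' medians in the same 6 WT comparisons lay between -0.07 and 0.09 log2, beside -0.01 to 0.01 for all genes.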

How the data were processed

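RNA from 42 HAP1 libraries was sequenced by the submitters. Per the submitters' processing notes, HISAT2 2.0.4, Cufflinks 2.2.1 and Cuffnorm were used with hg19; the annotation and the counting strand are not given in the sources used here. The deposited values are FPKM, as the authors computed them, and their read depth is unknown. Here log2(FPKM + 1) was fitted for the 12816 genes that reached 1 FPKM in 3 or more libraries, with limma 3.58.1 (R 4.3.3), as 14 group means with an intensity trend and no further scaling, and p-values were adjusted by Benjamini and Hochberg over all genes, called under 0.05. Normal noise was simulated for 12816 genes in all 42 libraries, with 200 genes of higher expression changed between WT DMSO and YKL 500 nM. The model recovered 50% of changes of 0.25 log2 and 94% of changes of 0.5 log2, and 5.59% of 179 calls were false. In the deposited data 63% of genes were called in that comparison, so these rates may not hold there. Named genes were called, had libraries that did not overlap and averaged 5 FPKM or more in a compared group. They were the largest changes, up to 5 in each direction for WT against DMSO and 3 elsewhere. The rule on overlap was not applied to differences of an effect between the lines. Called kinase module genes and MED14 could be named in any comparison within WT. Other members named for a pattern over treatments or a listed value were chosen after their values were seen. Members, lists and motifs were chosen with earlier results of these data known. Lengths, GC content and overlaps come from GENCODE 29 and promoters from RefSeq, both on GRCh38. Scaling, filter, pseudocount, trend, library and replicate alternatives are in the closing section.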

Additional observations from a re-analysis of the deposited data

Results flagged for a closer look

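In 17 cases the test of the difference between the lines passed for a named member, and each value is the effect in C312S less that in WT, in log2 (limma). For THZ1, which rests on the C312S DMSO and C312S THZ1 libraries that stand apart, these were MED22 (0.80), CCNC (0.54), MED1 (0.46), MED6 (-0.30), MED21 (-0.31) and MED29 (-0.60). Under spike-in scaling MED6, MED21 and MED29 turned to 1.80, 1.68 and 1.46, and MED21 was not called under total-FPKM scaling (-0.23, adjusted p = 0.0566). Leaving out WT DMSO replicate 3 ended the call of MED6 (-0.21, adjusted p = 0.058).

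For adding YKL 500 nM to THZ531 they were MED22 (0.94), MED1 (0.72), MED11 (0.70), MED6 (-0.36) and MED30 (-0.30). The call of MED30 was lost without C312S combination 500 nM replicate 1 or 3, C312S THZ531 replicate 2, WT combination 500 nM replicate 2 or 3, or WT THZ531 replicate 1 (-0.24 to -0.29), and with GC and length trends removed (-0.13, adjusted p = 0.383). Under spike-in scaling MED6 (-0.29) and MED30 (-0.23) did not pass. For adding YKL 2 µM they were MED22 (1.18), MED16 (0.71), MED1 (0.70), MED6 (-0.47), MED30 (-0.43) and MED31 (-0.37). With GC and length trends removed MED6, MED30 and MED31 lay at -0.05, -0.05 and -0.04 there, and none of these passed. Under spike-in scaling MED6 (-0.06), MED30 (-0.04) and MED31 (0.01) did not pass there.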

How the results depend on the processing

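Spike-in scaling changed most. Of 168 named values it turned 50 and ended the call of 21. In WT these were, with YKL 500 nM, MED6 (-0.21), MED21 (-0.39), MED27 (-0.42), MED29 (-0.24) and CDK19 (-0.25); with THZ1, MED6 (-1.79), MED12 (-1.95), MED13 (-1.90), MED13L (-1.73), MED18 (-1.53), MED26 (-1.52) and CDK8 (-2.05). With the 500 nM combination they were MED21 (-0.029), MED30 (-0.11) and CDK8 (-0.034), and with the 2 µM combination MED21 (-0.42), MED31 (-0.41) and CDK8 (-0.38). Between YKL doses MED8 lay at 0.31. On adding YKL 500 nM to THZ531 they were MED6 (-0.007), MED21 (-0.19), MED29 (-0.005) and CDK19 (-0.16), and on adding 2 µM MED6 (-0.35), MED18 (-0.57), MED31 (-0.44) and CDK8 (-0.80).

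In C312S they were, with YKL 500 nM, MED21 (0.16) and CCNC (0.068); with YKL 2 µM, MED28 (0.37), MED31 (0.034) and CCNC (0.12); with THZ531, MED7 (0.60), MED21 (0.73) and MED31 (0.42). With the combinations they were MED7 (0.37), MED11 (0.39) and MED31 (0.12) at 500 nM, and MED11 (0.12) and CCNC (0.026) at 2 µM. On adding YKL 2 µM to THZ531 they were MED7 (-0.36), MED8 (-0.38) and MED27 (-0.41). Against WT DMSO they were MED18 (-0.41), MED31 (-0.16) and CCNC (-0.46), for the THZ1 effect between lines MED6 (1.80), MED21 (1.68) and MED29 (1.46), and for the effect of adding 2 µM MED31 (0.007). Total-FPKM scaling turned MED14 with YKL (0.011 and 0.056) and MED12 with THZ1 (-0.002), and removing GC and length trends turned MED12 with the 2 µM combination (0.049).

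The calls that spike-in scaling ended without a turn were, in WT, MED6, MED12, MED21, MED27 and MED29 with YKL 2 µM (0.06 to 0.26), MED13L (0.31), MED24 (-0.24) and CCNC (0.27) with THZ531, and MED6 (0.03) and MED18 (0.06) with the 2 µM combination. In C312S they were MED31 with YKL 500 nM (-0.15) and with the 2 µM combination (-0.01), CDK8 with THZ1 (0.21) and MED10 between doses (0.35). Between lines they were MED13L, MED15 and MED28 under THZ531 (-0.14 to -0.09), and MED6 and MED30 for the effect of adding YKL at both doses (-0.29 to -0.04).

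The counts of called members that moved by over 1.5 times with spike-in scaling were 30 in WT with YKL 500 nM, 8 in WT with THZ531, 12 in C312S with THZ1, 3 between lines under THZ531, 32 for the THZ1 effect, 32 and 0 between YKL doses in WT and C312S, 30 and 32 on adding YKL 500 nM and 2 µM in C312S, and 4 for the difference between lines at 500 nM. The WT dose count was 0 without a filter, 0 with total-FPKM scaling, 2 with GC and length trends removed and 0 with only the compared groups, and the C312S dose count was 2 and 2 under the last 2 settings. Leaving out a library gave 5 to 7 between lines under THZ531 and 0 to 1 for both dose counts; the other counts stayed within 1.5 times. The cause was not tested. Same-numbered libraries did not pair the groups (correlations of their deviations from -0.161 to 0.248, all over 0.1 in 0 of 20 comparisons). A fit with the replicate block changed none of the 168 named calls, and with the block WT YKL 500 nM called 19 members, THZ1 25 and the 500 nM combination 18. The read depth is unknown, so it sets no interval here.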
